A study of Mus musculus with 6 samples.

Results

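The mitochondrial ribosomal protein genes were followed in bone marrow RNA of mice with a knockout of the SNORD113-114 snoRNA cluster, as labelled. The 55 members are the rows of the count table whose mouse Ensembl identifier maps on GRCm38 to a fixed set of symbols, 30 Mrpl genes and 25 Mrps genes, out of 47729 genes in the table and 15686 tested. All 55 passed the filter on low counts. The 6 bulk libraries came from whole bone marrow extracts, 3 of mice labelled mutant (titled cluster KO, with a knockout named in the design) and 3 labelled wildtype. The sources used here do not give strain, age, sex or the extent of the deletion. They also do not say whether each library came from its own animal, and p-values therefore reflect only how much these libraries vary, which may be technical. Per the series title, the study asked how the cluster bears on blood stem cells and the translation machinery.

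The mitochondrial ribosome sits in the mitochondrial matrix and translates the few mRNAs of the mitochondrial genome, which encode core subunits of the respiratory chain. Its rRNAs are made in the organelle, whereas all of its proteins are encoded in the nucleus, made on cytosolic ribosomes and imported. Many of these proteins have a counterpart in bacterial ribosomes, and others exist only in mitochondria. Mrpl genes encode proteins of the large subunit and Mrps genes those of the small subunit, except that the product of Mrps18a is a large subunit protein.

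A larger share of these genes was lower in cluster KO marrow than of all genes, and the members that fell had shorter coding sequences than those that rose. Of the 55 members 23 fell and 5 rose, and 27 did not pass the test (edgeR quasi-likelihood test, Benjamini-Hochberg adjusted p under 0.05 over all tested genes). Among all tested genes 12.1% were called lower, 15.9% higher and 27.9% in either direction. The Mrpl genes had 14 of 30 lower and 3 higher, with a median log2 fold change of -0.26. The Mrps genes had 9 of 25 lower and 2 higher, with a median of -0.11, and the median over all tested genes was 0.00. Counting members whose libraries did not overlap between genotypes gave 30 lower and 8 higher, against 23.1% and 22.9% of all tested genes. These counts leaned on single libraries. Without cluster KO 2 the lower members numbered 4 Mrpl and 5 Mrps genes, and without wildtype 2 they numbered 7 and 6. The count of all genes called lower moved from 1895 to 742 and 944 in those fits and to 860 without wildtype 3, where 10 Mrpl and 6 Mrps genes were lower. The 3 higher Mrpl genes became 1 without cluster KO 2 and 2 without wildtype 2 or wildtype 3.

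**Figure D1:**
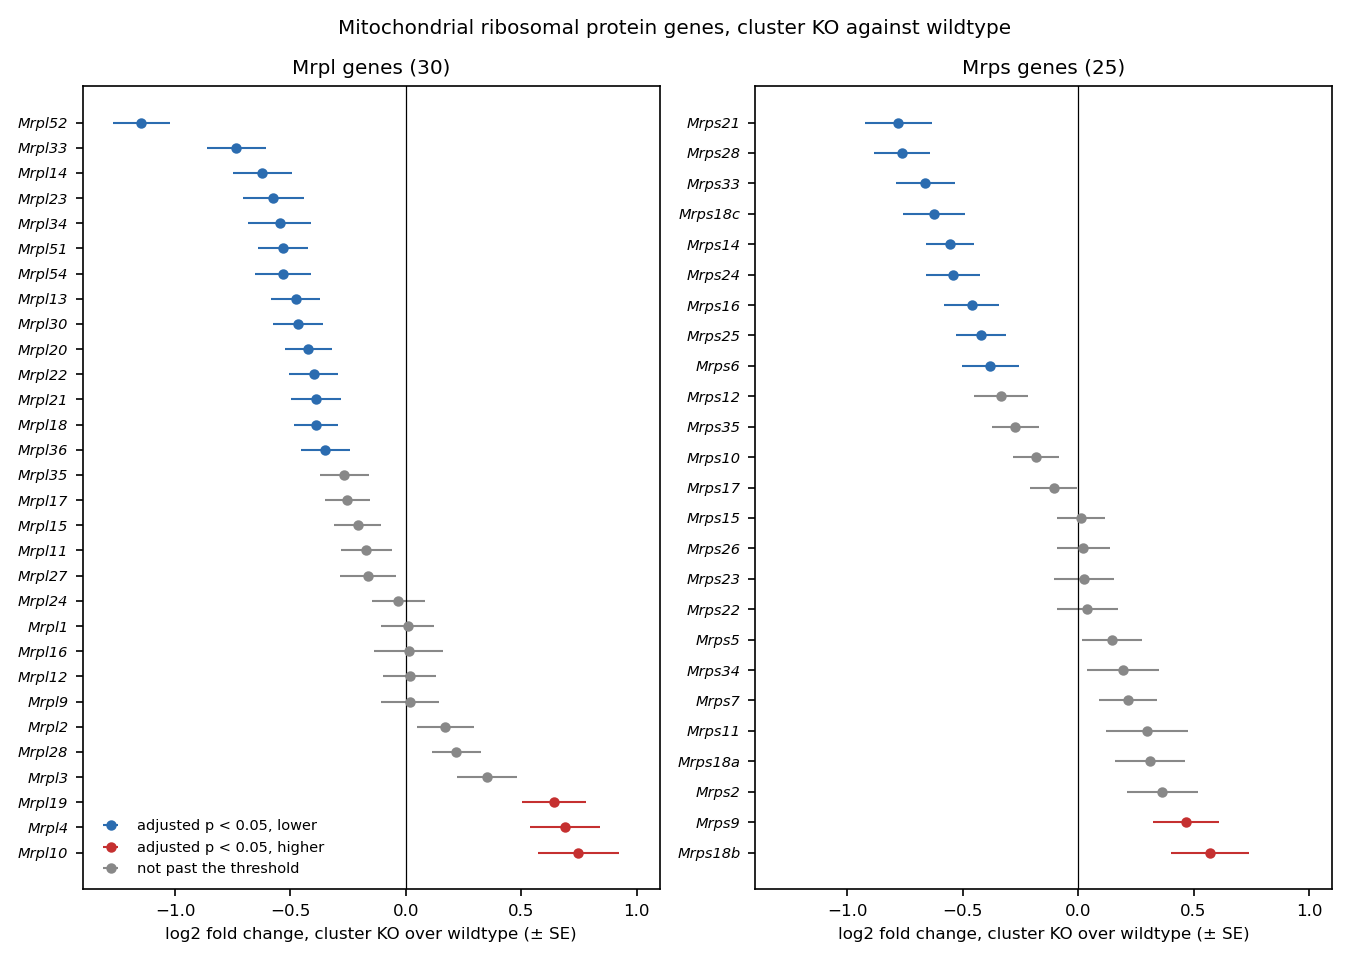
Log2 fold change of each of the 30 Mrpl (left) and 25 Mrps genes (right), cluster KO over wildtype, with its standard error as a bar, from the edgeR fit over 3 libraries a group. Blue genes passed as lower (14 and 9), red genes as higher (3 and 2) and grey genes did not pass, and the values run from -1.15 for Mrpl52 to 0.75 for Mrpl10.

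Between 17663369 and 23459168 reads were counted on genes in a library, and a member had between 590 and 11514 counts in a library, against a floor of 3 counts. Reads with more than 1 alignment made up 13.4 to 14.7% of all reads in cluster KO and 16.1 to 16.8% in wildtype libraries (two-sided exact permutation p = 0.1, the lowest possible with 3 libraries a group). Reads outside genes made up 7.29 to 10.05% and 10.03 to 11.06% (exact permutation p = 0.2). Genes annotated as rRNA took 0.251 to 0.614% and 0.998 to 1.44% of the gene counts (exact permutation p = 0.1). They include the mitochondrial rRNA genes mt-Rnr1 and mt-Rnr2 described below, so this share is not independent of the levels of those genes. The deletion itself could not be checked, since Rian, a host transcript of the region, had 9, 6 and 3 raw counts in cluster KO and 11, 5 and 38 in wildtype libraries. For the marker lists of the marrow, the shares over all tested genes were 15.9% higher and 12.1% lower. Of 12 B lineage markers 9 rose and 0 fell. Neutrophil markers had 3 of 12 higher and 0 lower, monocyte and macrophage markers 1 of 10 and 0, T and NK cell markers 3 and 1 of 10, and stem and early progenitor markers 4 and 1 of 10. Erythroid markers had 0 of 11 higher and 5 lower, megakaryocyte and platelet markers 1 and 3 of 7 tested, mast cell, basophil and eosinophil markers 1 and 1 of 6 tested, and stroma and endothelium 2 and 0 of 6 tested.

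Among the large subunit genes, Mrpl52 had the smallest p of all 55 members. It encodes mL52, a protein without a bacterial counterpart, and lies on chromosome 14 from 54426909 to 54429756 (GRCm38, plus strand). Mrpl52 stood at 152, 135 and 127 normalised read counts (CPM, on TMM-scaled library sizes) in cluster KO 1 to 3 and at 281, 291 and 345 CPM in wildtype 1 to 3. All 3 cluster KO libraries were below all 3 wildtype libraries, and the cluster KO mean was 45.1% of the wildtype mean. The log2 fold change was -1.15 (SE 0.12, adjusted p = 0.000949, edgeR), and it ran from -1.23 to -1.05 when each library was left out in turn.

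Mrpl33, for bL33m, whose bacterial counterpart lies near the tRNA exit site, stood at 192, 157 and 151 CPM in cluster KO and 258, 269 and 307 CPM in wildtype (a log2 fold change of -0.74 with an SE of 0.13, edgeR adjusted p = 0.00419). Once trends with transcript length and GC content were removed the value was -0.40. Mrpl51, for mL51, likewise without a bacterial counterpart, stood at 257, 232 and 211 CPM against 324, 342 and 347 CPM (-0.53, SE 0.11, adjusted p = 0.00709). Mrpl14 encodes uL14m at the face that meets the small subunit, where the assembly factor Malsu1 docks. Its values were 144, 124 and 113 CPM against 183, 189 and 214 CPM (-0.62, SE 0.13, adjusted p = 0.00754). For these genes too the groups did not overlap, and all 3 passed in each of the 6 fits that left out a library.

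Mrpl13, for the conserved rRNA-binding protein uL13m, stood at 251, 218 and 212 CPM in cluster KO and 306, 324 and 318 CPM in wildtype (a log2 fold change of -0.48 with an SE of 0.11, edgeR adjusted p = 0.0103). Mrpl54, for mL54, was at 168, 145 and 131 CPM against 218, 204 and 221 CPM (-0.53, SE 0.12, adjusted p = 0.011). Neither gene had overlapping groups. Mrpl13 missed the threshold without cluster KO 2 (adjusted p = 0.0627, edgeR) and without wildtype 2 (0.056), and Mrpl54 without cluster KO 2 (0.0595). The other large subunit genes that fell were, by log2 fold change, Mrpl23 (-0.57) and Mrpl22 (-0.40) at the exit of the peptide tunnel, Mrpl18 (-0.39) of the central protuberance, and Mrpl34 (-0.55), Mrpl30 (-0.47), Mrpl20 (-0.42), Mrpl21 (-0.39) and Mrpl36 (-0.35), which are further conserved proteins. All of them missed the threshold without cluster KO 2, and Mrpl18, Mrpl20, Mrpl21, Mrpl22, Mrpl30 and Mrpl36 also without wildtype 2. Mrpl20, Mrpl21, Mrpl34 and Mrpl36 missed it without wildtype 3, Mrpl18, Mrpl21, Mrpl22 and Mrpl36 without wildtype 1, and Mrpl21 and Mrpl36 without cluster KO 3. With length and GC trends removed Mrpl20 no longer passed (-0.16, edgeR adjusted p = 0.195), and Mrpl18 was at -0.61. The values of Mrpl18 and Mrpl36 are uncertain in that their exons overlap Tcp1 (671 CPM in cluster KO, 515 in wildtype) and Ndufs6 (268 and 505 CPM) on the opposite strand, and the libraries do not keep strand.

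Mrpl19, Mrpl4 and Mrpl10 went the other way. Mrpl19, for bL19m at the subunit interface (chromosome 6, 81957851 to 81965958), stood at 82.9, 86.5 and 96.1 CPM in cluster KO and 63.6, 57.0 and 49.4 CPM in wildtype. Its log2 fold change was 0.64 (SE 0.14, adjusted p = 0.00883, edgeR), and it passed in all 6 fits that left out a library. Mrpl4, for uL4m, which reaches into the wall of the peptide tunnel, stood at 167, 221 and 203 CPM against 134, 132 and 100.5 CPM (0.69, SE 0.15, adjusted p = 0.00942). Mrpl10, for uL10m, the base of the stalk that carries Mrpl12, stood at 60.3, 71.4 and 84.9 CPM against 50.9, 42.2 and 35.8 CPM (0.75, SE 0.18, adjusted p = 0.0128). Every cluster KO library exceeded every wildtype library for these 3 genes. Without cluster KO 2 Mrpl4 (edgeR adjusted p = 0.054) and Mrpl10 (0.0506) missed the threshold, Mrpl10 also without wildtype 2 (0.0557) and wildtype 3 (0.0583), and Mrpl10 was at 0.47 with length and GC trends removed.

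**Figure D2:**
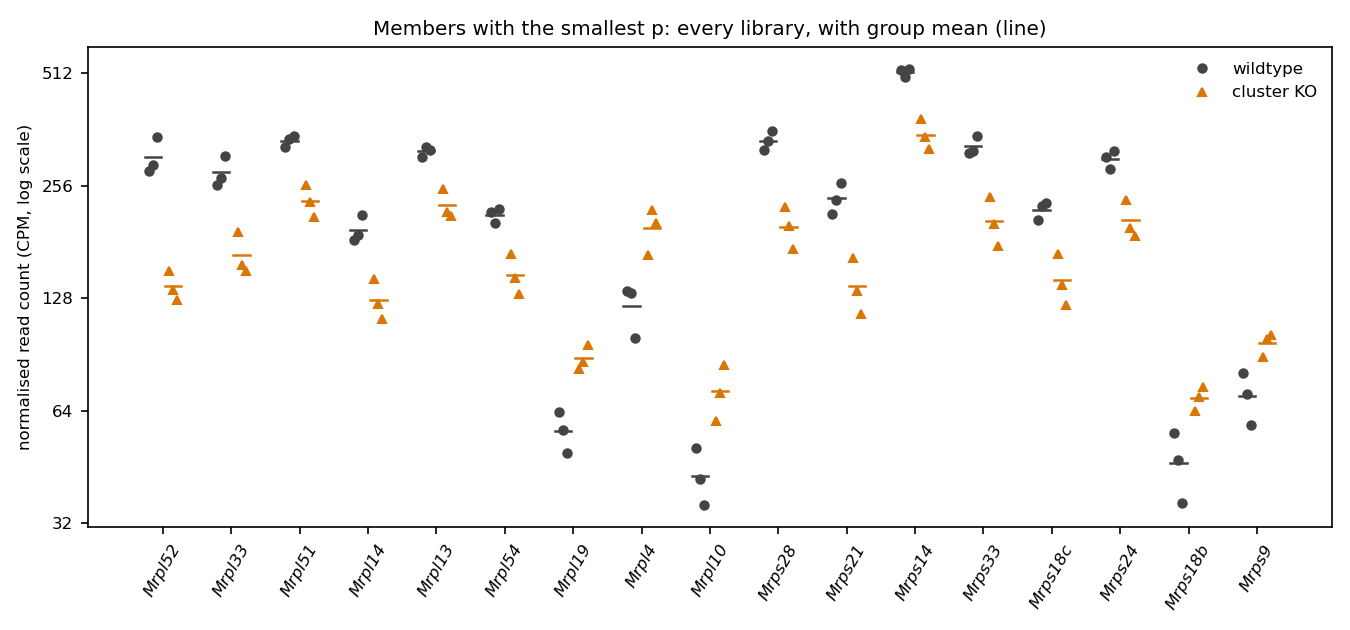
Normalised read count (CPM, log scale) in every library for the members with the smallest p among those that passed, up to 6 in each direction of Mrpl and Mrps. Grey circles are wildtype and orange triangles cluster KO libraries, drawn left to right as libraries 1 to 3, with the group mean as a line, and in each gene the groups do not overlap, as in Mrpl52 with 127 to 152 CPM below 281 to 345 CPM.

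Among the small subunit genes, Mrps28 had the smallest p. It encodes bS1m, the counterpart of bacterial S1, and lies on chromosome 3 from 8802146 to 8923918. Mrps28 stood at 224, 199 and 174 CPM in cluster KO and 319, 336 and 359 CPM in wildtype libraries (a log2 fold change of -0.76 with an SE of 0.12, edgeR adjusted p = 0.0031). Mrps21, for bS21m, was at 164, 133 and 116 CPM against 215, 235 and 261 CPM (-0.78, SE 0.14, adjusted p = 0.00506), and at -0.42 with length and GC trends removed. Mrps14, for uS14m of the subunit's head, was at 386, 344 and 321 CPM against 521, 499 and 525 CPM (-0.56, SE 0.10, adjusted p = 0.00511). In all of them every cluster KO library lay below every wildtype library, with cluster KO 1 nearest to wildtype.

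Mrps33, for the mitochondria-specific mS33, stood at 239, 202 and 176 CPM in cluster KO and 313, 317 and 348 CPM in wildtype (a log2 fold change of -0.66 with an SE of 0.13, edgeR adjusted p = 0.00573). Mrps24, for uS3m at the entry of the mRNA channel, stood at 235, 197 and 188 CPM against 305, 283 and 316 CPM (-0.54, SE 0.12, adjusted p = 0.0088; 0.0542 without cluster KO 2). The groups did not overlap in either gene. Mrps16 (-0.46), Mrps25 (-0.42) and Mrps6 (-0.38) also fell by log2 fold change. Each of these last 3 missed the threshold without cluster KO 2, wildtype 2 or wildtype 3, Mrps25 and Mrps6 also without wildtype 1 and Mrps6 without cluster KO 3. Mrps25 was at -0.10 with length and GC trends removed (edgeR adjusted p = 0.512).

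The paralogs Mrps18a, Mrps18b and Mrps18c, all related to bacterial S18, did not share a direction. Mrps18c, for bS18m, the protein in the bacterial position, stood at 168, 139 and 123 CPM in cluster KO and 207, 226 and 229.8 CPM in wildtype libraries (a log2 fold change of -0.62 with an SE of 0.13, edgeR adjusted p = 0.00865). Mrps18b, for mS40 of the small subunit (chromosome 17, 35910379 to 35916389), stood at 63.9, 69.5 and 74.3 CPM against 56.0, 47.3 and 36.3 CPM (0.57, SE 0.17, adjusted p = 0.031). Mrps18a, whose product mL66 belongs to the large subunit, stood at 140.4, 142 and 149 CPM against 132, 126 and 89.6 CPM and did not pass (0.31, SE 0.15, adjusted p = 0.148). So 1 paralog fell, 1 rose and 1 missed the threshold, and the differences between paralogs were not tested. Mrps18b passed in 2 of the 6 fits that left out a library (edgeR adjusted p from 0.024 to 0.104), missing without cluster KO 2, cluster KO 3, wildtype 2 and wildtype 3.

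Mrps9, for uS9m, whose bacterial counterpart touches the tRNA in the P site, was the other small subunit gene that rose, at 89.2, 99.8 and 102 CPM against 80.8, 71.0 and 58.7 CPM (edgeR log2 fold change of 0.47 with an SE of 0.14, adjusted p = 0.036). It missed the threshold without cluster KO 2, cluster KO 3, wildtype 2 and wildtype 3 and with length and GC trends removed, where it was at 0.22 (adjusted p = 0.198). The Mrps members that rose therefore numbered 0 in each of those 4 fits and 1 with the trends removed.

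Several members lay close to the threshold. Just inside it, Mrpl36 stood at 261, 252 and 224 CPM against 316, 325 and 297 CPM (adjusted p = 0.033, edgeR), Mrpl21 at 136, 122 and 121 CPM against 163, 161 and 174 CPM (0.0256) and Mrps6 at 106, 103 and 86.0 CPM against 129.8, 123 and 132 CPM (0.042). Just outside it, Mrpl3, for uL3m near the peptidyl transferase centre, stood at 130.0, 146 and 161 CPM against 121, 121 and 100.4 CPM (fold change on the log2 scale 0.35, adjusted p = 0.0679; 0.0377 with DESeq2). Mrpl17, for bL17m near the tunnel exit, stood at 282, 268 and 269.8 CPM against 329, 340.4 and 309 CPM (-0.25, adjusted p = 0.0767). Mrps12, for uS12m of the decoding centre, stood at 178, 164 and 144 CPM against 212, 208 and 193 CPM (-0.33, adjusted p = 0.056), and Mrps35 at 159, 151 and 151 CPM against 187, 184 and 186 CPM (-0.27, adjusted p = 0.0685). With no filter on low counts Mrpl21 (edgeR adjusted p = 0.0618), Mrpl36 (0.0806) and Mrps6 (0.0919) missed the threshold, as did Mrps6 with total counts as library size (0.0563). None of the 4 genes just outside had overlapping groups, and Mrps12 and Mrps35 passed with length and GC trends removed (edgeR adjusted p = 0.0474 and 0.0155). All 4 passed without cluster KO 1 (edgeR adjusted p from 0.0181 for Mrps12 to 0.0443 for Mrpl17).

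The remaining members did not pass. Proteins around the catalytic centre and the stalks were among them. Mrpl2 was at 0.17 (SE 0.12), Mrpl16 at 0.01 (SE 0.15), Mrpl27 at -0.17 (SE 0.12), and the stalk genes Mrpl1, Mrpl11 and Mrpl12 at 0.01, -0.17 and 0.02, all as log2 fold changes (SE 0.11 each). Mrpl12, for the stalk protein that contacts elongation factors, stood at 319, 310.4 and 319 CPM in cluster KO and 354, 311 and 273 CPM in wildtype, so the groups overlapped, while Mrpl10, the base of the same stalk, rose. Mrpl15 (-0.21), Mrpl35 (-0.27), Mrpl28 (0.22), Mrpl24 (-0.03) and Mrpl9 (0.02) complete the large subunit. With length and GC trends removed Mrpl15 was at -0.40 and Mrps10 at -0.34, and both passed (edgeR adjusted p = 0.0224 and 0.022). Mrpl15 and Mrpl35 also passed without cluster KO 1 (0.0475 and 0.0344). In the small subunit, Mrps2 (0.36), Mrps11 (0.30), Mrps7 (0.22), Mrps34 (0.19) and Mrps5 (0.15) had positive and Mrps10 (-0.18) and Mrps17 (-0.11) negative log2 fold changes. Mrps22 (0.04), Mrps23 (0.03), Mrps26 (0.02) and Mrps15 (0.01) were nearest to 0. Mrps2 passed without cluster KO 1 (0.50, edgeR adjusted p = 0.0126), and Mrps11 without wildtype 1 (0.53, edgeR adjusted p = 0.0429), its values running from 0.15 to 0.53 as each library was left out. Exons of Mrps11 overlap Mrpl46 (124 CPM in cluster KO, 97.7 in wildtype) on the opposite strand. Exons of Mrps7 overlap Gga3 and Mif4gd there, and those of Mrps34 overlap Mapk8ip3, so the values of these members are likewise uncertain. Within the 12 mitochondria-specific proteins 5 genes fell and 1 rose, and within the 43 with a bacterial counterpart 18 fell and 4 rose. So 41.7% and 41.9% of these classes fell, against 12.1% of all tested genes. By gene symbol, 3 of 3 mitochondria-specific Mrpl genes fell beside 11 of 27 others (40.7%), and 2 of 9 mitochondria-specific Mrps genes (22.2%) beside 7 of 16 others (43.8%). Mrps18a, for a large subunit protein, is among these 9. Mrps18a and Mrps18b were counted as mitochondria-specific although both are related to bacterial S18. These small counts were not tested.

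**Figure D3:**
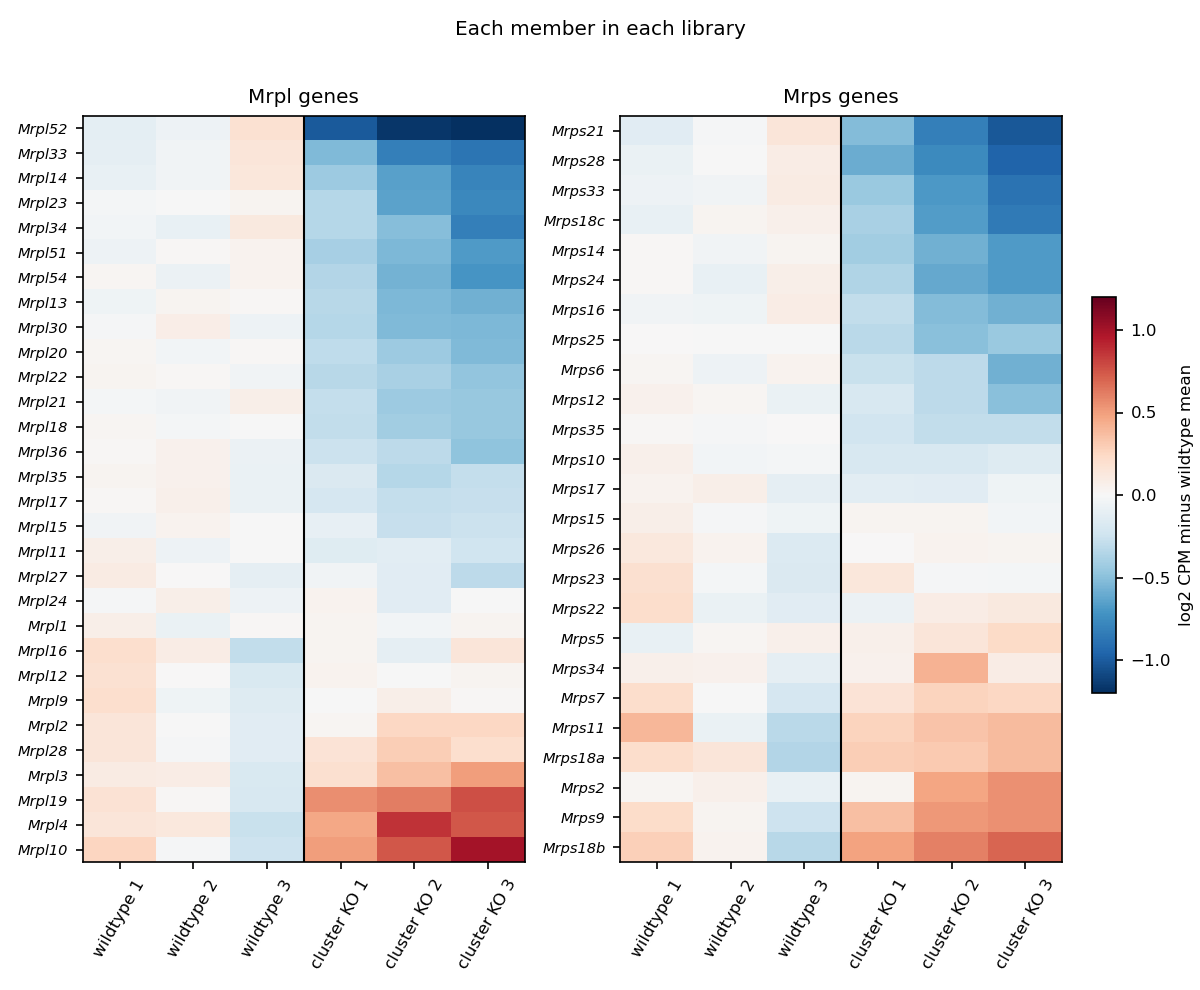
Log2 CPM of each member in each library minus the mean of the 3 wildtype libraries, for Mrpl (left) and Mrps genes (right), ordered by log2 fold change, with blue below and red above the wildtype mean. In the members that fell, such as Mrps28 with 224, 199 and 174 CPM, cluster KO 1 lies nearest to wildtype, and in members that rose, such as Mrpl10, wildtype 3 is the lowest library.

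The direction of change went with the length of the coding sequence. The 23 members that fell had longest annotated coding sequences of 195 to 648 bases (median 429), the 5 that rose had 762 to 1170 bases (median 876), and those that did not pass had 360 to 1296 bases (median 654). Across the 55 genes, Spearman's rho between coding length and log2 fold change was 0.76 (Pearson's r 0.73 on log2 length), a description over genes that share the same 6 libraries. It was 0.83 over the 30 Mrpl genes and 0.72 over the 25 Mrps genes. Over all 12804 tested genes with a coding sequence rho was -0.17, but up to 900 bases their median rose across length bins, as the members' median did. The median log2 fold change of all genes was -0.24 up to 450 coding bases, 0.02 at 451 to 600 and 0.23 at 601 to 900, and it was 0.05 over 900. The members' medians in the same bins were -0.53, -0.33, 0.02 and 0.15. Among members with up to 450 coding bases 14 of 17 fell and 0 rose, and of all tested genes of that length 34.7% were lower and 10.8% higher. Among members of 451 to 600 bases 7 of 14 fell and 0 rose, and of all genes of that length 15.9% were lower and 19.6% higher. Of those with 601 to 900 bases 2 of 17 fell and 4 rose (11.8% and 23.5%), near the 8.08% lower and 26.9% higher of all genes of that length. Of those over 900 bases 0 of 7 fell and 1 rose, and of all such genes 11.04% were lower and 17.6% higher. Leaving out the cytosolic ribosomal, complex I and IV and mitoribosomal genes, 28.5% of the remaining 841 genes with up to 450 coding bases were lower and 11.9% higher. With the trends of transcript length and GC content removed, rho over the 55 members was 0.61, and it lay between 0.75 and 0.79 when each library was left out.

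**Figure D4:**
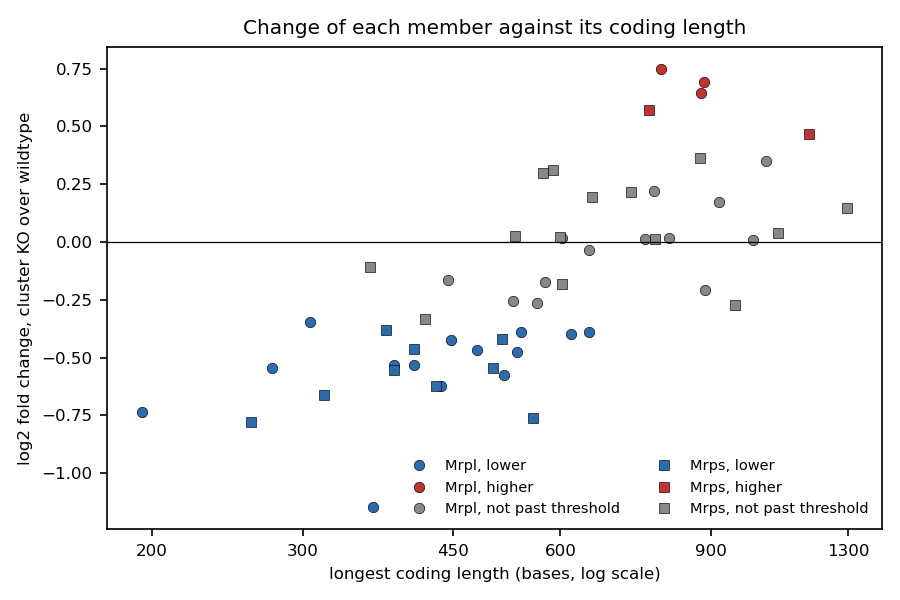
Log2 fold change of each member against the length of its longest annotated coding sequence (bases, log scale), with circles for Mrpl and squares for Mrps genes and colours as in the plot of fold changes. The members that fell (blue) lie at 195 to 648 bases and those that rose (red) at 762 to 1170 bases.

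Levels also differed widely between members. Per kilobase of median transcript length, wildtype means ran from 731 CPM per kilobase for Mrpl52 down to 11.3 for Mrpl19, and Mrpl52 was at 330.0 and Mrpl19 at 17.7 in cluster KO. Mrps21 (585), Mrpl33 (581) and Mrpl20 (639.5) were also among the highest in wildtype, and Mrps5 (19.9) and Mrpl1 (24.4) among the lowest. The values depend on the annotated transcripts, since a long annotated tail, as in Mrps25 and Mrpl19, lowers the level per kilobase. The median wildtype level was 346 CPM per kilobase for the members that fell, 89.2 for those that did not pass and 49.5 for those that rose. Without division by length these medians were 278, 132 and 56.7 CPM. The same wildtype values enter the calls, so level and call are not independent. The CPM of all members summed to 9356, 8893 and 8619 in cluster KO 1 to 3 and to 11014, 10782 and 10661 in wildtype 1 to 3.

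Promoter sequence was looked up for the members, because genes of this machinery are known targets of ETS family factors such as GABP, of NRF1 and of YY1. RefSeq promoters on GRCm38.p6 were found for 47 of the 55 members, and motif letters were searched on both strands in the 250 bases before each annotated start. The ETS letters CCGGAAG were present in 13 of 47 members (27.7%), against 7.83% of all 27025 genes with a promoter. They were found in 7 of 20 members that fell, 6 of 24 that did not pass and 0 of 3 that rose. The NRF1 letters GCGCATGC were present in 6 of 47 members (12.8%) against 2.56% of all genes. They were found in 2 of 20 members that fell, 2 of 24 that did not pass and 2 of 3 that rose. Only 3 of the 5 members that rose had a promoter here, too few for a comparison. The YY1 letters AAGATGGCG were in 2 members (4.26%, against 0.71%), the GC box GGGCGG in 22 (46.8%, against 35.4%) and CCAAT in 15 (31.9%, against 37.5%). The 27025 genes were not limited to the 15686 tested here, whereas all 55 members were tested. The motif shares therefore do not compare the members with expressed genes alone. None of the searched motifs contains another, and a match is a description of the sequence only.

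The stretches just before the annotated start are shown for 3 members that fell and carry the ETS letters there. They are also shown for both Mrps genes that rose, which carry GC box letters. These are examples, as GC box letters were found in 9 of 20 members that fell, 11 of 24 that did not pass and 2 of 3 that rose. Capitals mark matches to the searched motifs on either strand, and each sequence runs 5′ to 3′ on the strand of its gene. They lie on GRCm38.p6 at chr14:54426789-54426908 (plus, Mrpl52), chr8:71464806-71464925 (plus, Mrpl34), chr11:58171544-58171660 (plus, Mrpl22), chr17:35916441-35916560 (minus, Mrps18b) and chr1:42851113-42851232 (plus, Mrps9).
Mrpl52: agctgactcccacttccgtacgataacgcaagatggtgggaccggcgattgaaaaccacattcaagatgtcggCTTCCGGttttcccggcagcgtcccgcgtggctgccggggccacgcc
Mrpl34: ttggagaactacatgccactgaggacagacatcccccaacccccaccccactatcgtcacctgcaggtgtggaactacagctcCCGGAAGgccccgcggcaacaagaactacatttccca
Mrpl22: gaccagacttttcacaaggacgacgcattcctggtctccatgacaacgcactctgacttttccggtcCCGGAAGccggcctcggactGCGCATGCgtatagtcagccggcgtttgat
Mrps18b: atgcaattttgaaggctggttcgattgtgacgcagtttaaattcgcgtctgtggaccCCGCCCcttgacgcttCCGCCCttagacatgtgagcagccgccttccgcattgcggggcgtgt
Mrps9: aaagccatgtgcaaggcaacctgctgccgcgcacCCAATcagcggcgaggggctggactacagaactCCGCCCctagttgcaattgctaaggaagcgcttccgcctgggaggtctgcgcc
In Mrpl22 the ETS letters are followed by NRF1 letters, and the Mrps9 stretch also holds a CCAAT box.

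Other genes of the same machinery were called in both directions. Of 27 mitoribosomal protein genes outside the 55, 4 fell (14.8%) and 6 rose (22.2%), beside 12.1% and 15.9% of all tested genes. Their lower share was thus near that of all tested genes, whereas 41.8% of the 55 members fell. The median log2 fold change of the 27 was -0.03. Those that fell included Mrpl57 (-0.61, SE 0.11), Chchd1 (-0.72, SE 0.14) and Mrpl41 (-0.64, SE 0.13), and those that rose Mrpl45 (0.87, SE 0.18), Mrpl37 (0.75, SE 0.17) and Mrpl38 (0.63, SE 0.16). Over these 27 genes, in the same libraries, rho between coding length and log2 fold change was 0.80. With length and GC trends removed 7 of them were lower and 3 higher. Of 16 mitochondrial translation factors and mRNA-handling genes, 15 were tested, 2 fell (13.3%) and 4 rose (26.7%). Slirp (-0.77, SE 0.13) and Lrpprc (-0.65, SE 0.12), which together stabilise mitochondrial mRNAs, fell. The GTPase gene Guf1 (0.65, SE 0.14), the elongation factor gene Tufm (0.83, SE 0.18) and the initiation factor gene Mtif3 (1.099, SE 0.261) rose, each as a log2 fold change. The 4 higher genes became 2 without cluster KO 2 or wildtype 3.

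Of 25 factors that assemble the mitochondrial ribosome or modify its rRNA, 11 rose and 2 fell, with a median log2 fold change of 0.48, beside 15.9% of all genes higher and 12.1% lower. The GTPase gene Mtg2, for a large subunit maturation factor, stood at 26.0, 35.6 and 44.6 CPM in cluster KO and 16.3, 15.1 and 17.0 CPM in wildtype (a log2 fold change of 1.13 with an SE of 0.21, edgeR adjusted p = 0.0049). Mrm2, for a methyltransferase of the large rRNA, rose by 1.03 (SE 0.20) and Rbfa, for a small subunit maturation factor, by 0.76 (SE 0.15) on the log2 scale. The groups did not overlap for these 3 genes. The GTPase gene Noa1 (-0.54, SE 0.13) and Malsu1 (-0.50, SE 0.13), whose product docks on that of Mrpl14, fell. The 11 higher genes became 4 without cluster KO 2, cluster KO 3 or wildtype 3 and 5 without wildtype 2, and the 2 genes lower became 0 without cluster KO 2 or wildtype 3. The same fits gave 2 or 3 of the 6 higher mitoribosomal genes outside the list, as did leaving out wildtype 1.

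The rRNAs of the mitochondrial ribosome were lower. In these poly(A) libraries the large rRNA gene mt-Rnr2 stood at 3478, 2292 and 1611 CPM in cluster KO and 5163, 5676 and 7387 CPM in wildtype (a log2 fold change of -1.30 with an SE of 0.24, edgeR adjusted p = 0.00499). The small rRNA gene mt-Rnr1 stood at 1682, 978 and 631 CPM against 3520, 3406 and 5129 CPM (-1.87, SE 0.34, adjusted p = 0.00771), and neither passed when no filter on low counts was used. The whole mitochondrial genome took 1.46 to 2.17% of gene counts in cluster KO and 2.72 to 3.06% in wildtype libraries (exact permutation p = 0.1). Of the mitochondrially encoded mRNAs 6 of 11 tested fell and 0 rose, against 12.1% and 15.9% of all tested genes, with a median of -0.50. Mt-Nd2 (-1.08, SE 0.19), mt-Nd6 (-1.03, SE 0.19) and mt-Nd4 (-0.83, SE 0.15), all for complex I subunits, had the smallest p. Without cluster KO 2 the count was 3.

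The 2 gene groups most like the members are set beside them, and of all tested genes 12.1% were lower and 15.9% higher. Of 79 cytosolic ribosomal protein genes 77 fell and 0 rose, with a median log2 fold change of -0.86. Of 46 nuclear-encoded subunits of respiratory complexes I and IV 38 fell and 1 rose, with a median of -0.67. Rps3a1 (-0.91, SE 0.11), Rps12 (-1.43, SE 0.18) and Rps15a (-1.11, SE 0.15) had the smallest p of the first group. In the second, Cox6a1 (-0.95, SE 0.12), Ndufa5 (-0.99, SE 0.14) and Cox7b (-0.89, SE 0.12) had the smallest p among those that fell, and Ndufv1 (0.79, SE 0.19), for a catalytic subunit of complex I, was the gene that rose. The difference between the lists was not tested.

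**Figure D5:**
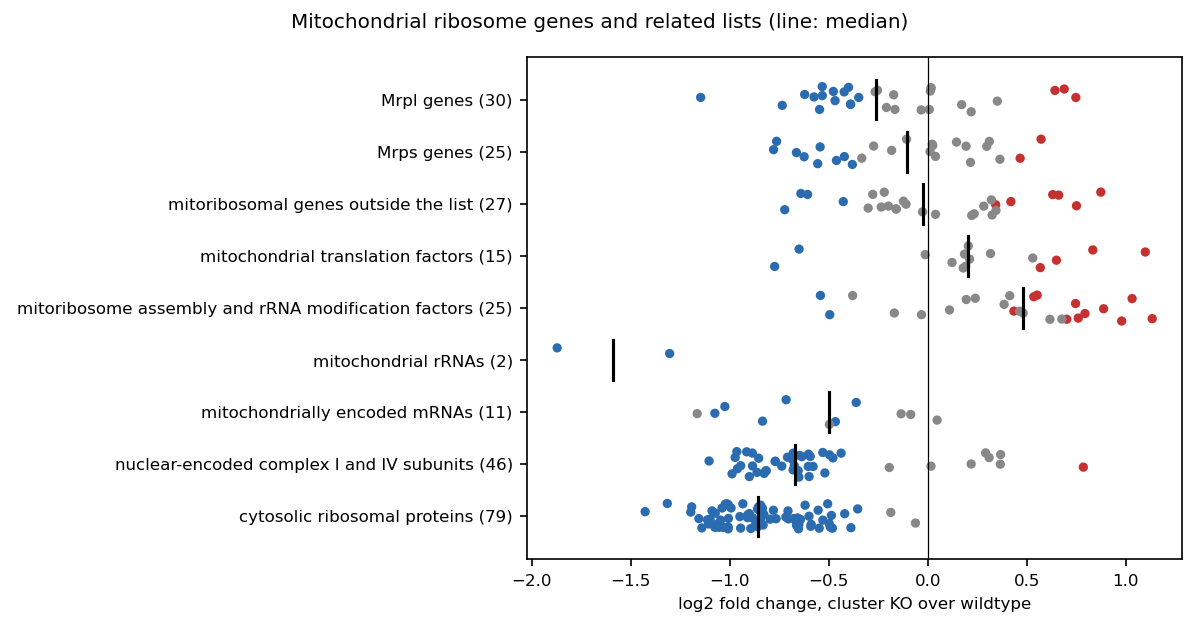
Log2 fold change of every tested gene in the Mrpl and Mrps sets and the related lists, cluster KO over wildtype, with the median as a black line, blue for genes called lower, red for higher and grey for those that did not pass. The medians were -0.26 for Mrpl and -0.11 for Mrps genes, 0.48 for assembly factors and -0.86 for cytosolic ribosomal proteins.

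The level of the members varied between libraries of the same genotype. The median over the 30 Mrpl genes of log2 CPM minus the wildtype mean was -0.19, -0.30 and -0.30 in cluster KO 1 to 3 and 0.03, 0.00 and -0.05 in wildtype 1 to 3. Over the 25 Mrps genes it was -0.13, -0.14 and -0.05 against 0.04, -0.01 and -0.05. These medians are over members of both directions, and the summed CPM of the Mrps genes was 3838, 3650 and 3525 in cluster KO against 4549, 4410 and 4392 in wildtype. In the same order the share of reads outside genes was 10.05, 8.59 and 7.29% against 10.03, 10.5 and 11.06%. The share on rRNA genes, mt-Rnr1 and mt-Rnr2 included, was 0.614, 0.383 and 0.251% against 0.998, 1.08 and 1.44%. Summed B lineage marker CPM ran from 2444 to 2635 in cluster KO and from 854 to 922 in wildtype libraries, and 0 of these 12 markers was at 0 counts in all libraries. Summed neutrophil marker CPM ran from 10641 to 20249 against 6340 to 12076, megakaryocyte and platelet CPM from 284 to 291 against 427 to 527, and erythroid CPM from 7213 to 10321 against 8074 to 8825. Stem and early progenitor CPM ran from 1306 to 1317.5 against 1103.5 to 1130, and monocyte and macrophage CPM from 172 to 289 against 153 to 165. T and NK cell CPM ran from 520 to 675 against 435 to 537. Mast cell, basophil and eosinophil CPM ran from 220.5 to 252 against 169 to 219, and stroma and endothelium CPM from 91.5 to 167 against 46.9 to 90.0. The part of RNA quality and of cell makeup in the members' changes was not tested. In bulk RNA, fewer cells of a type and less RNA per cell cannot be told apart.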

How the data were processed

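Bone marrow RNA of 6 mouse libraries, 3 a group, was sequenced from whole cell extracts with poly(A) chemistry and an unstranded Nextera XT kit, per the labels' protocols. The authors deposited raw counts of reads for each Ensembl gene. The submitters' processing notes name bcl2fastq, TopHat2, HTSeq and mm10; the sources used here give no versions, annotation release or counting mode. The 5 HTSeq summary rows stayed out of library sizes and tests. They held 13.4 to 16.8% of reads as multiply aligned, 7.29 to 11.1% as outside genes and 2.71 to 2.95% as ambiguous.

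Names, positions, transcript length, GC and coding length came from GENCODE M21 (GRCm38), which matched 47310 of 47729 genes. Coding length is the longest annotated, without the stop codon. Groups came from the sample titles. The test was edgeR 4.0.16 in R 4.3.3: TMM, filterByExpr with a minimum count of 10, robust quasi-likelihood fit and F-test on genotype, Benjamini-Hochberg at 0.05. The SE is the coefficient divided by the square root of F. The test was checked on simulated data. Members and lists were chosen with earlier results of these data known. 1 of 16 translation factor symbols had no match. Values in every library are given for up to 6 called members with the smallest p in each direction of Mrpl and Mrps, for those nearest the threshold and for the Mrps18 paralogs. Of each list up to 3 genes a direction are named. Alternatives were DESeq2 1.42.0, 3 other scalings, no low-count filter, a replicate block, length and GC trends removed with mgcv 1.9.3, and each library left out.

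Exons of 18 members overlap a gene on the opposite strand, and without strand such reads cannot be told apart or count as ambiguous. Processed pseudogenes can likewise take reads. A member's lowest count was 590. Counting error is not small beside the spread between libraries in every member. In wildtype Mrps25, for example, had an SD of 0.76 CPM around a mean of 155 CPM. A count of 0 allows 3 counts, 0.128 to 0.17 CPM, at 95% confidence.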

Additional observations from a re-analysis of the deposited data

How the results depend on the processing

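Of the 28 members that passed, 10 also passed in each of the 6 fits that left out a library: Mrpl52, Mrpl33, Mrpl51, Mrpl14, Mrpl19, Mrps28, Mrps21, Mrps14, Mrps33 and Mrps18c. DESeq2 and its size factors kept all 28. Leaving out each library gave 4 to 17 lower and 1 to 4 higher Mrpl genes, 5 to 11 lower and 0 to 3 higher Mrps genes, and 742 to 2579 lower and 1258 to 3151 higher genes in all. The Mrpl median log2 fold change lay between -0.31 and -0.23, and the Mrps median between -0.16 and -0.073. Under the other scalings and DESeq2 the median over all genes lay between -0.0042 and 0.029.

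Libraries of the same number did not deviate together (correlations -0.12, 0.02 and -0.09), and 1 of 6 correlated best with its own number. With 3 libraries a group these values cannot exclude that the numbers pair libraries, and the labels do not say. With a replicate block, 6 Mrpl genes were lower and 0 Mrps genes higher, and 865 genes were lower and 1331 higher in all. With the replicate block and length and GC trends removed together, 6 Mrpl and 4 Mrps genes were lower and 0 Mrps genes higher, and 941 genes were lower and 1286 higher in all. With the trends alone removed, 1 Mrps gene was higher, and 7 of the 27 mitoribosomal genes outside the list were lower. The cause was not tested.

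The members that changed sign had not passed, and their log2 fold changes ran from -0.03 (Mrpl24) to 0.22 (Mrps7). With length and GC trends removed these were Mrpl2 (-0.021), Mrpl9 (-0.22), Mrpl12 (-0.29), Mrpl16 (-0.17), Mrps7 (-0.053), Mrps15 (-0.14) and Mrps22 (-0.15). With the block added they were -0.021, -0.22, -0.29, -0.17, -0.048, -0.14 and -0.14. Leaving out single libraries, the ranges were Mrpl1 -0.029 to 0.043, Mrpl9 -0.059 to 0.13, Mrpl12 -0.073 to 0.11, Mrpl16 -0.12 to 0.12, Mrpl24 -0.079 to 0.020, Mrps15 -0.016 to 0.046, Mrps22 -0.029 to 0.16, Mrps23 -0.058 to 0.13 and Mrps26 -0.056 to 0.088.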

Other observations

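The 55 members lie on 17 chromosomes, and 0 of them on chromosome 12, which holds the deleted cluster. Of the members, 13 (23.6%) have a tested protein-coding neighbour that is transcribed away from them, with start sites up to 1000 bases apart or overlapping by up to 200 bases, against 11.03% of all tested protein-coding genes. In 6 of these 13 pairs the member and its neighbour had the same sign of change, 46.2%, and in all 710 such pairs 52.3% had. Both genes passed in 2 of the 13 pairs, in the same direction each time, and in 85 of all 710 pairs, 50 of them in the same direction. Mrpl30 (log2 fold change -0.47, SE 0.11) fell with Mitd1 (-0.37, SE 0.12, edgeR adjusted p = 0.04), whose start is 66 bases away. Mrpl36 (-0.35, SE 0.10) fell with the complex I gene Ndufs6 (-0.92, SE 0.15, edgeR adjusted p = 0.00322), whose annotated exons overlap its own. Mrps12 (-0.33, SE 0.12), which did not pass, lies beside Sars2, the mitochondrial seryl-tRNA synthetase gene, which rose (0.77, SE 0.24, edgeR adjusted p = 0.0371).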
